A study of Oryza sativa with 6 samples.

Results

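Glutelins, the main storage proteins of the rice grain, were read in the shoot tips of rice seedlings as the probe sets with a single gene whose symbol or synonym, in the annotation of the array or in RefSeq's rice genes, is *GLUA* or *GLUB* with a number. This name alone chose 6 probe sets of 5 genes among 57258 probe sets tested, 22436 of which have 1 gene and stand for 17905 genes. They are 2 probe sets of *GLUA-2* (LOC4348563, chromosome 10) and 1 each of *GLUA-1* (LOC4327027, chromosome 1), *GLUA-3* (LOC4333164, chromosome 3), *GLUB-4* (LOC4328969, chromosome 2) and *GLUB-5* (LOC4328968, chromosome 2). *GLUB-2* (LOC4328881, chromosome 2) carries such a name in the gene table, but no probe set was matched to it. Chromosomes are those of the RefSeq assembly ASM3414082v1, in which *GLUB-4* and *GLUB-5* lie next to each other. The plants were of the variety Hitomebore, with 3 arrays for each of 2 genotypes. The *Osrdr1* mutant was homozygous for a *Tos17* retrotransposon insertion in the second exon of *OsRDR1*, an RNA-dependent RNA polymerase gene, and the sibling wild type (WT) segregated from the same selfed heterozygote. All mutant plants thus descend from 1 insertion line. Seeds of both germinated 2 days in darkness on water (28 °C), and the seedlings grew for some 48 h more in the greenhouse (26 °C, 16 h light a day), with no stress named in the labels, before shoot tips were taken. The sources used here do not say how many seedlings made a sample. No probe set was matched to *OsRDR1* by name, so the genotype was not checked on the arrays. The authors chose the genotypes by PCR at the locus and report that RT-PCR found *OsRDR1* expression lost in mutant shoot tips.

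Glutelins are legumin-type globulins that the starchy endosperm makes while the grain fills. Their precursors enter the endoplasmic reticulum, pass through the Golgi and reach the protein storage vacuole, where a processing enzyme cuts each into an acidic and a basic chain. The *GLUA* and *GLUB* subfamilies are related in sequence, and their expression is a textbook example of control restricted to the endosperm. In germination the stored protein is digested to feed the seedling, and leaves and meristems are not sites of its deposition.

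Values are on the log2 scale of RMA, the method by which the authors corrected the background, equalized the arrays and summarized the probes of each probe set. The median of an array lay between 4.87 and 4.96. No detection calls were used here, so the level of a glutelin was set against this median and, as a measured background chosen after the values were seen, against 64 probe sets for reporter genes foreign to rice (name prefix RPTR). Of these 60 or 61 lay below the median of their array, their own median was 3.73 to 3.83, and the highest reached 5.50 to 6.21. Probes bind unequally, so levels of different probe sets are positions on the array and not amounts of RNA. At a limma adjusted p under 0.05, 901 probe sets (1.57%) were higher and 290 (0.506%) lower in *Osrdr1*, together 2.08%, with a median log2 fold change of -0.01 over all probe sets tested. Higher ones made up 75.7% of the calls, against 85.3% with arrays centred on their medians and 60.6% after another quantile normalization. WT replicate 3 held the highest value of the 6 arrays for 25.5% of all probe sets, and the other arrays for 12% to 18.5%.

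*GLUA-2* was the only glutelin with a probe set above all reporter probe sets on every array, and that probe set was higher in *Osrdr1*. This probe set, Os.5151.1.S1_at, had log2 values of 7.27, 7.00 and 7.16 in *Osrdr1* replicates 1, 2 and 3, against 6.41, 6.67 and 6.26 in WT replicates 1, 2 and 3. The genotypes did not overlap, and the smallest gap lay between *Osrdr1* replicate 2 and WT replicate 2. The mean was 7.14 ± 0.14 in *Osrdr1* and 6.45 ± 0.21 in WT (SD, n = 3 each), a log2 fold change of 0.70 (standard error 0.13, 95% interval 0.40 to 0.99, limma adjusted p = 0.0425), or 1.62-fold (1.32 to 1.99). The median of the 901 probe sets called higher was a similar 0.68, and 761 of them had a lower adjusted p. The exact permutation test over arrays gave p = 0.1 (two-sided), the smallest that 3 against 3 arrays allow. In a tissue sample, more cells with the transcript and more of it per cell cannot be told apart.
The call did not hold without any 1 array. The log2 fold change was then 0.60 to 0.81, and the limma adjusted p was 0.173, 0.101 and 0.181 without *Osrdr1* replicate 1, 2 or 3 and 0.148, 0.0592 and 0.0664 without WT replicate 1, 2 or 3.

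The same probe set lay above the median of all probe sets on every array and below the median of those with 1 gene, which was 7.59 to 7.85. Its value exceeded the array median by 2.39, 2.06 and 2.29 in *Osrdr1* and by 1.52, 1.74 and 1.30 in WT, and it was above 70.3% to 71.6% of all probe sets in *Osrdr1* and above 65.0% to 67.4% in WT. On each of the 6 arrays it was also above the highest reporter probe set. That margin was small in WT replicate 3, where *GLUA-2* had 6.26 and the highest reporter 6.21.

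The other probe set of *GLUA-2* did not show the difference. Os.12807.1.S1_x_at, whose suffix _x_at marks probes that can also bind other transcripts, had log2 values of 4.66, 4.52 and 4.75 in *Osrdr1* replicates 1, 2 and 3, against 4.75, 4.77 and 4.75 in WT replicates 1, 2 and 3. It lay just below the median of all 6 arrays and among the reporter probe sets, and the genotypes overlapped. Its log2 fold change was -0.11 (standard error 0.08, 95% interval -0.30 to 0.08, limma adjusted p = 0.641). The brighter probe set exceeded the dimmer one by 2.61, 2.48 and 2.41 in *Osrdr1* and by 1.66, 1.91 and 1.51 in WT on the log2 scale. This gap between probe sets averaged 2.50 ± 0.10 in *Osrdr1* and 1.69 ± 0.20 in WT (SD, n = 3 each). The exact permutation test of this gap over arrays gave p = 0.1 (two-sided), the smallest possible here. The dimmer probe set lies within the reporter range, so the gap mostly restates the difference of the brighter one and is no separate result. The sequences the probe sets were designed on were not used here, and which of them follows the *GLUA-2* transcript was not tested.

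**Figure D1:**
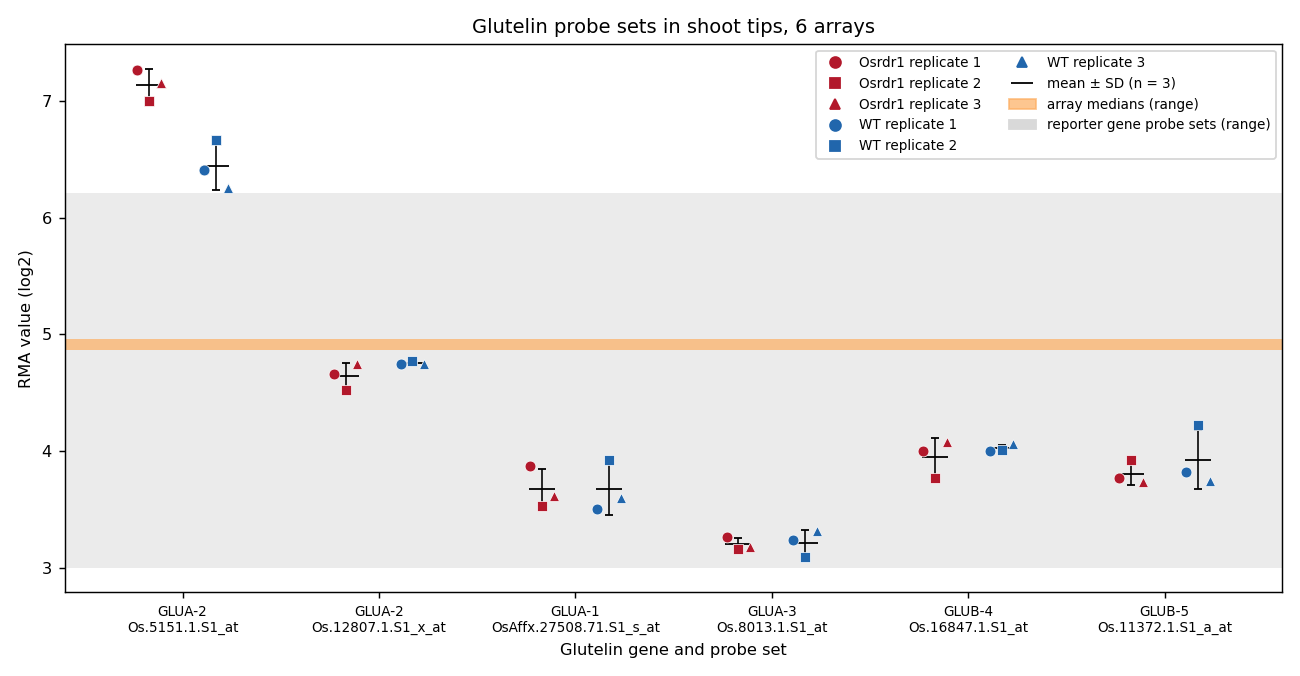
RMA log2 values (vertical axis) of the 6 glutelin probe sets (horizontal axis) on 3 *Osrdr1* arrays (red, left) and 3 WT arrays (blue, right), with black lines for the mean ± SD, an orange band for the range of array medians and a grey band for the range of reporter probe sets over all arrays. Only Os.5151.1.S1_at of *GLUA-2* lies above both bands, at 7.00 to 7.27 in *Osrdr1* and 6.26 to 6.67 in WT.

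The remaining glutelins were read near the bottom of the scale in both genotypes. *GLUA-1* (OsAffx.27508.71.S1_s_at) had log2 values of 3.87, 3.53 and 3.61 in *Osrdr1* and of 3.50, 3.92 and 3.60 in WT. These overlapped, and the log2 fold change was -0.01 (95% interval -0.33 to 0.31, limma adjusted p = 0.993). *GLUA-3* (Os.8013.1.S1_at) had 3.26, 3.16 and 3.18 in *Osrdr1* and 3.24, 3.09 and 3.31 in WT, among the lowest values of each array, with 0.0768% to 0.548% of probe sets below it in *Osrdr1* and 0.0419% to 0.646% in WT. Its log2 fold change was -0.01 (95% interval -0.21 to 0.18, limma adjusted p = 0.965), so that neither *GLUA* gene beside *GLUA-2* separated the genotypes.
Of the *GLUB* subfamily, *GLUB-4* (Os.16847.1.S1_at) had log2 values of 4.00, 3.77 and 4.08 in *Osrdr1* and 4.00, 4.01 and 4.06 in WT, a log2 fold change of -0.07 (95% interval -0.30 to 0.15, limma adjusted p = 0.813). *GLUB-5* (Os.11372.1.S1_a_at), its neighbour on chromosome 2, had 3.77, 3.92 and 3.73 in *Osrdr1* and 3.82, 4.22 and 3.74 in WT, a log2 fold change of -0.12 (95% interval -0.44 to 0.19, limma adjusted p = 0.771). WT replicate 2 gave the highest *GLUB-5* value, 0.30 above the next. None of these 4 genes reached the median of any array or the highest reporter probe set. *GLUB-4* was above the median of the reporter probe sets on 5 arrays, *GLUB-5* on 4, *GLUA-1* on 2 and *GLUA-3* on 0.

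In all, limma called 1 of the 6 glutelin probe sets higher and 0 lower, against 1.57% and 0.506% of all probe sets (2.08% in either direction), and 1 was at an unadjusted p under 0.05, against 14.3% of all. The median log2 fold change of the 6 was -0.04, with 1 positive and 5 negative values. The 95% intervals of the 5 others ran from -0.44 to 0.31, which leaves room for changes of up to 1.35-fold down and 1.24-fold up in these background-level signals. The genotypes separated at 1 of the 6 probe sets, and among all probe sets they separated at 18.9%, of which 10% of all were higher and 8.83% lower in *Osrdr1*.

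Probe sets shared between glutelins and further genes gave the same low signal, and were not counted as members because they have several genes. One is assigned to *GLUB-4*, *GLUB-5* and LOC4326442 (Os.11372.2.S1_s_at) and had log2 values of 4.09, 4.15 and 4.36 in *Osrdr1* and of 4.30, 4.69 and 4.33 in WT. The other 2 are assigned to *GLUA-1* and LOC4352868. Os.22346.1.S1_x_at had 3.67, 3.80 and 3.80 in *Osrdr1* and 3.74, 3.95 and 3.90 in WT. Os.22346.2.S1_x_at had 3.65, 3.54 and 3.60 in *Osrdr1* and 3.44, 4.28 and 3.27 in WT. All 3 had their highest value in WT replicate 2, and so had 3 of the 6 glutelin probe sets (*GLUA-1*, *GLUB-5* and the dimmer one of *GLUA-2*), where 12.8% of all probe sets did. In the order named, the margins over the next array were 0.33, 0.05 and 0.63 for the shared probe sets and 0.06, 0.30 and 0.02 for the members, all at low signal. Shared probe sets are assigned to genes of the members, so these counts are not independent. None of the 3 shared probe sets was called by limma (adjusted p = 0.488, 0.689 and 0.942, and 0 at an unadjusted p under 0.05).

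Of the other storage proteins, none was called. The remaining glutelin, *GluC* (also named *GLUD-1*), had 3.67 to 3.72 in *Osrdr1* and 3.60 to 3.69 in WT, at the level of the dim members. Of 10 probe sets of prolamin, seed albumin and globulin genes, limma called 0, against 2.08% of all probe sets. Only 1 was at an unadjusted p under 0.05, against 14.3% of all. It was that of *RA5* of the seed allergen family (log2 fold change -0.47, limma adjusted p = 0.232). The median log2 fold change of the 10 was -0.17. *PROLM25*, a prolamin of the endosperm, had on the brighter of its probe sets 4.77, 4.80 and 4.65 in *Osrdr1* and 4.77, 6.01 and 4.51 in WT, so that WT replicate 2 stood apart by 1.21. *RAG2*, a seed allergen, also stood apart there, by 1.15, on 1 of its probe sets, with 4.18, 4.28 and 4.09 in *Osrdr1* and 4.23, 5.43 and 4.08 in WT. Of all 10 probe sets, 4 were highest in WT replicate 2, 5 in WT replicate 3 and 1 in *Osrdr1* replicate 2. One listed gene, *GLB1* (LOC4337720), was bright, but whether this symbol stands for the endosperm globulin or for another gene was not settled from the annotation. It had 10.64 to 10.83 in *Osrdr1* and 10.56 to 10.71 in WT, which overlapped.

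Transcription factors known from the seed were measured for 4 genes, and 1 of them was called lower, against 0.506% of all probe sets. *LFL1*, a B3-domain factor related to regulators of seed maturation, had log2 values of 3.92, 4.03 and 4.13 in *Osrdr1* and 4.61, 4.41 and 4.54 in WT, a log2 fold change of -0.49 (limma adjusted p = 0.0461) at a level below the median of every array. The *LFL1* values also lay within the range of the reporter probe sets, and a link to *GLUA-2* was not tested. *RISBZ5*, a bZIP factor of the family that binds storage protein promoters, had 7.62, 7.49 and 8.16 in *Osrdr1* and 7.23, 7.11 and 7.07 in WT, which did not overlap but was not called (log2 fold change 0.62, limma adjusted p = 0.133). *VP1*, which acts in seed maturation, and *NF-YB1*, an endosperm factor, overlapped between genotypes, at log2 fold changes of -0.16 and -0.01. *RISBZ1* and *RPBF*, well-known activators of glutelin genes, were not matched to a probe set by name.

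Proteins that fold and sort glutelins in the endosperm also serve other proteins in other tissues, and several of their genes were bright here. Of 12 probe sets of 8 such genes, 1 was called lower and 0 higher, against 0.506% and 1.57% of all probe sets. Their median log2 fold change was -0.09. The called one was that of the protein disulphide isomerase *PDIL2-3*, which also has the suffix _x_at of probes that can bind other transcripts. It had 10.79, 10.88 and 10.83 in *Osrdr1* and 11.30, 11.35 and 11.18 in WT (log2 fold change -0.44, limma adjusted p = 0.0426). *BIP1*, the chaperone of the endoplasmic reticulum, had 12.66 to 12.81 in *Osrdr1* and 13.07 to 13.10 in WT without overlap and was not called (log2 fold change -0.33, limma adjusted p = 0.0767). *PDIL1-1*, the isomerase whose loss keeps proglutelin in the endoplasmic reticulum, had a log2 fold change of -0.12 (limma adjusted p = 0.532). *VPE1*, the vacuolar enzyme that cuts proglutelin, had 9.83, 9.83 and 9.96 in *Osrdr1* and 9.63, 9.46 and 9.35 in WT on its brightest probe set (log2 fold change 0.39, limma adjusted p = 0.0936), while its 3 dimmer probe sets gave 0.29, -0.15 and -0.08. *RAB5A* and *GPA3*, which guide glutelin from the Golgi to the vacuole, were not called, with log2 fold changes of 0.08 for *RAB5A* and of 0.02 and 0.10 for the probe sets of *GPA3* (limma adjusted p = 0.81, 0.936 and 0.84).

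**Figure D2:**
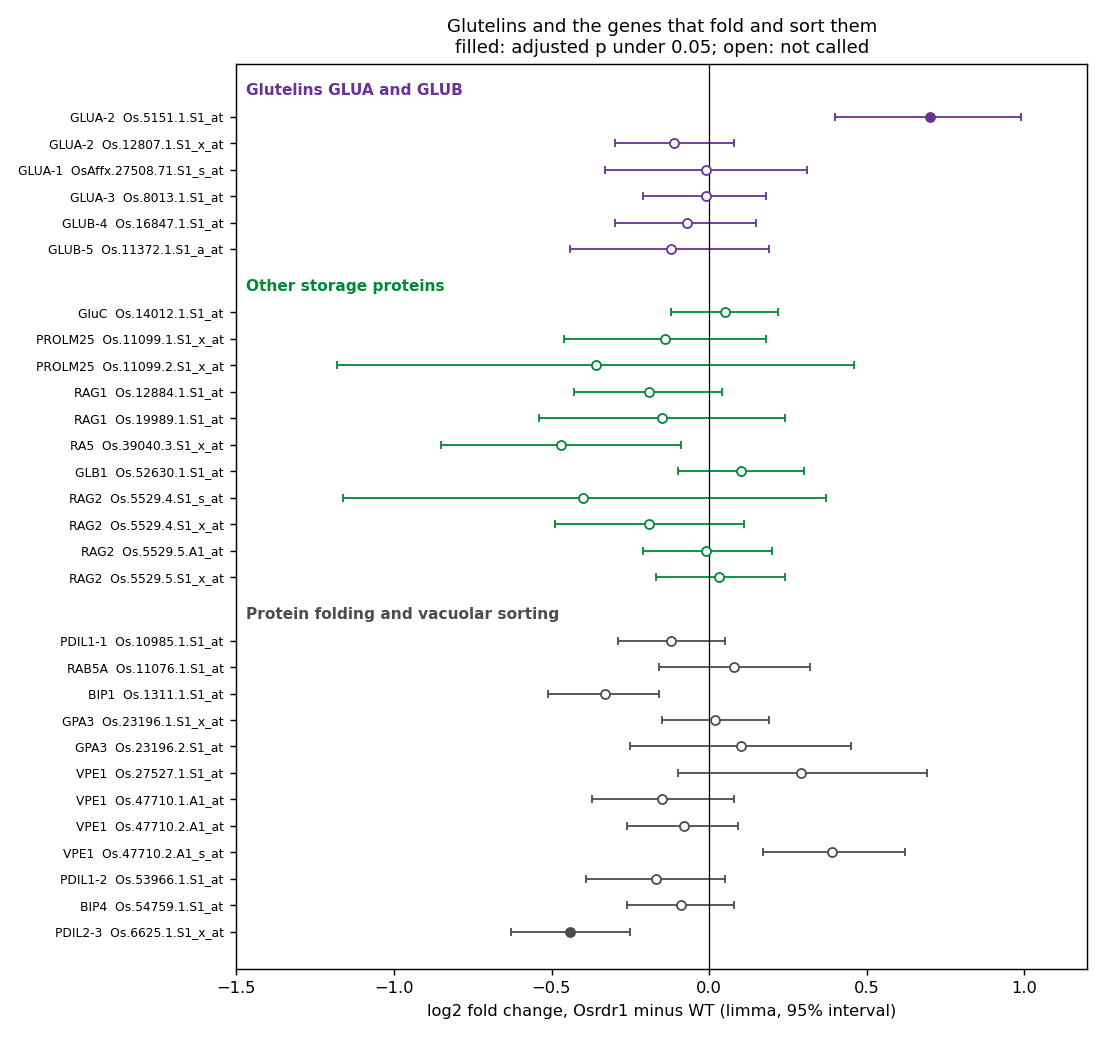
Log2 fold changes, *Osrdr1* minus WT, with 95% intervals from limma (horizontal axis) for the glutelin probe sets, those of other storage proteins and those of folding and sorting genes (vertical axis), filled where the adjusted p was under 0.05. The brighter probe set of *GLUA-2* at 0.70 and *PDIL2-3* at -0.44 are the only filled points, and the other 5 glutelin intervals include 0.

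Seedlings still carry the grain they grew from, so genes known from seed tissue were read beside the glutelins. Several such transcripts were high on 1 array, WT replicate 2. *AMY1A*, an alpha-amylase that germinating grains secrete, had log2 values of 3.33, 3.55 and 3.58 in *Osrdr1* and 3.73, 10.45 and 3.60 in WT. *EP3A*, a cysteine proteinase of germinating grains, had 4.89, 5.32 and 4.92 in *Osrdr1* and 5.07, 7.72 and 5.06 in WT. In both genes only WT replicate 2 was high. *RAB21*, a late embryogenesis protein, had on the brighter of its probe sets 8.00, 6.87 and 7.33 in *Osrdr1* and 7.48, 11.73 and 6.06 in WT, and *RAB16B*, of the same family, had 5.52, 5.49 and 5.79 in *Osrdr1* and 5.60, 9.43 and 5.14 in WT. WT replicate 2 exceeded the other 5 arrays by more than 1 on the log2 scale at 2 of 7 probe sets of aleurone and germination enzymes, at 5 of 8 of late embryogenesis proteins, at 2 of 10 of other storage proteins and at 0 of 6 glutelin probe sets, against 0.283% of all probe sets. Of the 8 late embryogenesis probe sets, 3 were above the median on all arrays and 1 was below it on all. *LEA19*, for example, had 9.73 to 10.71 outside WT replicate 2. Which tissue gave this signal was not tested, so the late embryogenesis genes are not read here as marks of seed tissue alone.
Summed as unlogged signal, the enzymes gave 118 to 131 on *Osrdr1* arrays and 122 to 1684 on WT arrays, and the late embryogenesis proteins gave 1220 to 1619 on *Osrdr1* arrays and 1250 to 8123 on WT arrays. Such sums follow their brightest probe sets, for the enzymes *AMY1A* in WT replicate 2, and are not amounts of RNA. No probe set of either list was called by limma (0 of 7 and 0 of 8, against 2.08% of all probe sets). An unadjusted p under 0.05 was reached by 0, against 14.3% of all. The glutelin sum, most of it *GLUA-2*, was 200 to 233 on *Osrdr1* arrays and 156 to 188 on WT arrays. The 188 was that of WT replicate 2, below all *Osrdr1* arrays. Without WT replicate 2 the log2 fold change of the brighter *GLUA-2* probe set was 0.81. Those of *GLUB-5* and *GLUA-1* were then 0.02 and 0.12, with the sign turned (limma adjusted p = 0.95 and 0.766). *GLUA-3*, *GLUB-4* and the dimmer *GLUA-2* probe set stayed negative, at -0.07, -0.08 and -0.10. The part of seed tissue in these values was not tested.

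**Figure D3:**
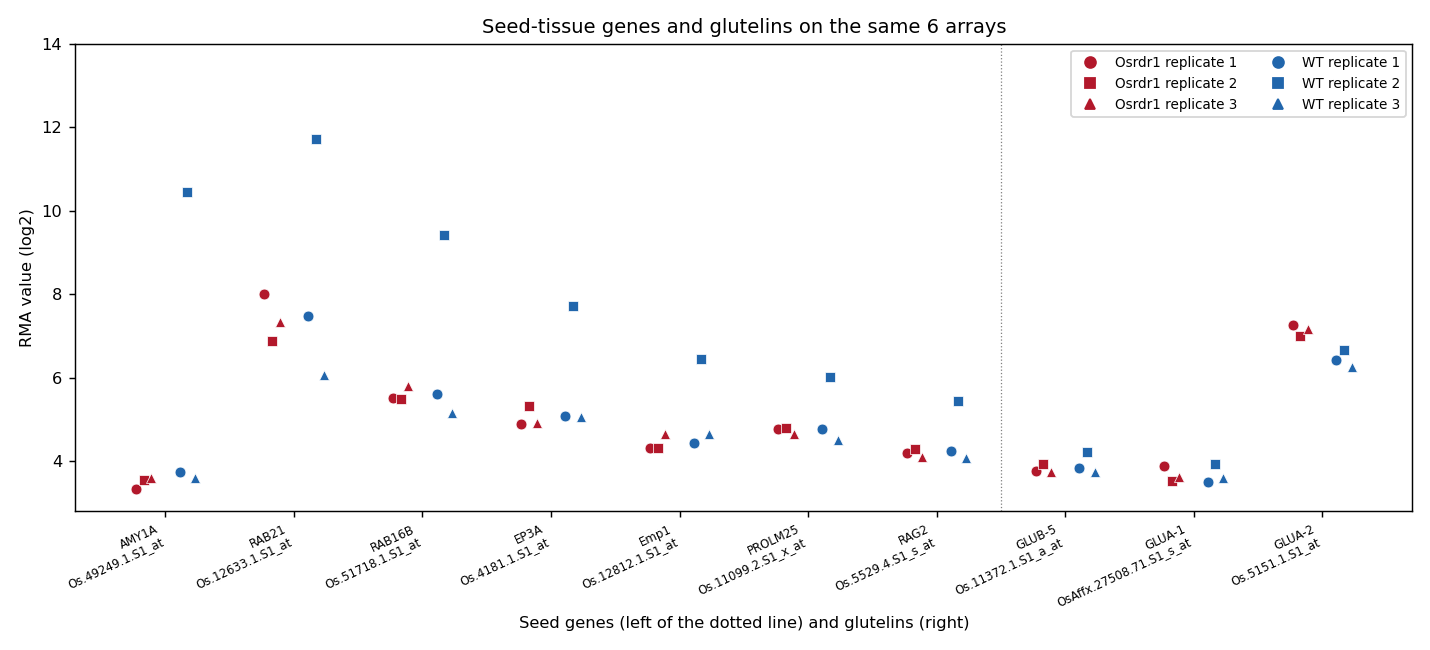
RMA log2 values (vertical axis) of 7 probe sets of genes known from seed tissue, chosen after their values were seen, and of 3 of the 6 glutelin probe sets (horizontal axis), one point per array with *Osrdr1* in red on the left and WT in blue on the right. WT replicate 2 (blue square) reaches 10.45 for *AMY1A* and 11.73 for *RAB21*, while it has 6.67 for *GLUA-2*, below all *Osrdr1* arrays. Not shown are the dimmer *GLUA-2* probe set, *GLUA-3*, which was highest in WT replicate 3, and *GLUB-4*, which was highest in *Osrdr1* replicate 3.

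Of the markers of the labelled tissue, 6 of 8 probe sets of leaf genes were above the highest reporter probe set on all 6 arrays, and the other 2 were below the median on all. The 3 probe sets of the meristem genes *OSH1* and *OSH71* were above the median on all WT arrays, but lay below it in *Osrdr1* replicate 3, as did *OSH71* and 1 of *OSH1* in *Osrdr1* replicate 2. Of 8 probe sets of leaf genes 3 were called higher in *Osrdr1* and 0 lower, with a median log2 fold change of 0.38. The called ones were 1 of *PORA*, for chlorophyll synthesis, and 2 of *OsrbcS*, for the Rubisco small subunit. Of 3 probe sets of these meristem genes 1 (*OSH71*) was called lower and 0 higher, with a median of -2.43. Among all probe sets 1.57% were called higher and 0.506% lower, and the genotypes separated at 18.9%. Summed as unlogged signal, leaf genes gave 49253 to 49505 on *Osrdr1* arrays and 35682 to 40085 on WT arrays, and the meristem genes gave 58.4 to 191 on *Osrdr1* arrays and 277 to 824 on WT arrays, without overlap in either case. These sums, too, follow their brightest probe sets, for leaf those of *CAB2R* and *OsrbcS*, and are not amounts of RNA. The brighter *GLUA-2* probe set differed between samples that also differed in these markers, whose part in its difference was not tested.

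Over the 6 arrays, the named genes most like the brighter *GLUA-2* probe set were *OsCiTrx*, a thioredoxin (Pearson's r = 0.989), *OsPIP2;7*, an aquaporin (0.988), *PCF8*, a TCP transcription factor (0.988), *AT15* (0.988) and *CHLG*, a chlorophyll synthase (0.985). They were the 5 highest of 3159 probe sets of named genes, and with so few arrays of 2 genotypes such values are a description only. In all 5, as in *GLUA-2*, the *Osrdr1* values lay above the WT values, and WT replicate 2 was the highest WT array. This likeness follows from choosing them by r and is no separate result. *PCF8* alone of them was called by limma, with 8.10, 7.58 and 7.72 in *Osrdr1* and 6.87, 7.10 and 6.59 in WT (log2 fold change 0.95, adjusted p = 0.0432). *OsPIP2;7* had a log2 fold change of 1.10 and *CHLG* of 0.29 (limma adjusted p = 0.0649 and 0.114). No glutelin was among the most similar, with r of -0.46 for the other *GLUA-2* probe set, 0.31 for *GLUA-1*, -0.29 for *GLUA-3*, -0.23 for *GLUB-4* and -0.12 for *GLUB-5*.
Of the genes beside *GLUA-2* on chromosome 10, those measured were not called. LOC4348562, next to it, had 7.67, 7.78 and 7.74 in *Osrdr1* and 7.83, 7.64 and 7.73 in WT, and LOC4348566, the third gene on the other side, had log2 fold changes of 0.17 and -0.10 on its 2 probe sets (limma adjusted p = 0.523 and 0.692).

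**Figure D4:**
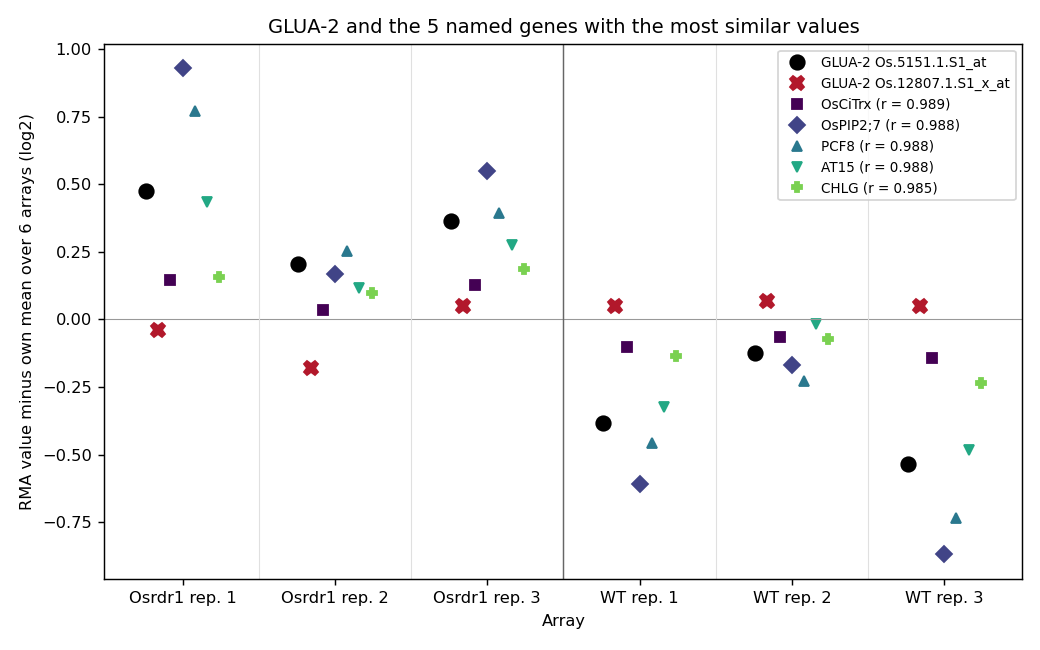
RMA log2 values minus each probe set's own mean over the 6 arrays (vertical axis) for both *GLUA-2* probe sets and the 5 named genes with the highest Pearson's r, by array (horizontal axis), *Osrdr1* left of WT. The brighter *GLUA-2* probe set (black) and the 5 genes, chosen for following it, are all above 0 in *Osrdr1* and below 0 in WT. The dimmer *GLUA-2* probe set (red crosses) shows no such step.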

How the data were processed

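RNA of 3 *Osrdr1* and 3 WT shoot-tip samples was hybridized to Affymetrix Rice Genome Arrays. The authors deposited log2 values of 57381 probe sets, made by RMA in Affymetrix Expression Console per the submitters' processing notes. The sources used here name no versions. RMA had corrected the background and equalized the quantiles, so arrays are comparable if total mRNA per cell is alike. The replicates are labelled biological.

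After 123 control probe sets were left out, 57258 entered a limma 3.58.1 fit (R 4.3.3; genotype as the only term, 4 residual and 3.32 prior degrees of freedom), with Benjamini-Hochberg adjustment over all of them, a threshold of 0.05, and neither a fold limit nor a brightness filter. The methods name no test. Tables and plots were made in Python 3.11.15 with pandas 2.3.3, numpy 2.4.6 and matplotlib 3.10.9. On simulated arrays for this comparison, with 200 of 57258 probe sets changed, limma recovered 71% of changes of 1 and 96% of changes of 2 on the log2 scale. The simulated noise was normal and alike on every array, whereas the array weights fitted to the data ran from 0.294 to 2.207. No change as small as the 0.70 of *GLUA-2* was simulated, so these shares do not give the power for it. The number of arrays limits the precision.

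Members were found by symbol or synonym. The text names every member probe set, of the other lists the called genes and the brightest, and the 5 named genes (symbol or synonym) with the highest Pearson's r to *GLUA-2*. Further examples were chosen after their values were seen. Members and lists were chosen with earlier results of these data known. The list names BIP and BE were read as chaperones and starch branching enzymes only, since they also matched unrelated genes. No probe set was matched to the root marker RCC3. Promoter motifs were not analysed here.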

Additional observations from a re-analysis of the deposited data

How the results depend on the processing

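The brighter *GLUA-2* probe set stayed higher in *Osrdr1* under all 12 alternatives and stayed called under 5. The dimmer one, at -0.11, stayed lower and was called under none of the 11 in which it had a value (-0.16 to -0.05). The brighter one was not called in any fit without 1 array, where the log2 fold change ran from 0.60 to 0.81 and the glutelin probe sets called by limma were 0 (1 at an unadjusted p under 0.05), nor with the replicate number as a block, where it was 0.70 with limma adjusted p = 0.147 and 0 glutelin probe sets were called (1 at an unadjusted p under 0.05). The labels do not say whether the numbers pair the samples. Deviations of same-numbered arrays correlated at 0.14, -0.15 and -0.27, and those of differently numbered arrays at -0.35 to 0.35. With 3 arrays per genotype these values cannot settle whether samples were paired. The block also took all calls, to 0 higher and 0 lower (6862 at an unadjusted p under 0.05). Calls among all probe sets were 2399 higher and 1344 lower with array weights, 1680 and 776 with a variance trend, 1415 and 566 with the dimmer probe sets left out, 180 lower once each array was centred and 626 lower after another quantile normalization. Without 1 array they ran from 0 to 801 higher and from 0 to 419 lower. Calls were 0 without *Osrdr1* replicate 1 or 3, 1 without WT replicate 1, 140 higher and 21 lower without *Osrdr1* replicate 2, and 159 and 22 without WT replicate 2. The cause was not tested. The other glutelins, none of them called, turned in sign: *GLUA-3* to 0.06 with array weights and 0.02 with centring, *GLUA-1* to 0.03 with centring and 0.01 after quantile normalization. Without 1 array *GLUA-1* ran from -0.10 to 0.12, *GLUA-3* from -0.07 to 0.03, *GLUB-4* from -0.14 to 0.02 and *GLUB-5* from -0.22 to 0.02. *GLUB-5* moved most with array weights, to -0.28 (limma adjusted p = 0.229), against -0.12 as reported, which put 2 glutelin probe sets at an unadjusted p under 0.05. Glutelin probe sets above the reference on all arrays numbered 1 with the array median and with the highest reporter probe set (added after the data were seen), 2 with the 25th percentile and 0 with the median of probe sets that have 1 gene. The filter on dim signal left out all dim members. Signal near background limits what the dim members can show.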

Other observations

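Genes of starch synthesis, the other large product of the endosperm, were measured with 30 probe sets of 13 genes. Limma called 0 of these, against 2.08% of all probe sets. At an unadjusted p under 0.05 were 2 that were higher and 1 that was lower, against 14.3% of all. The median log2 fold change of the 30 was 0.02. *Wx*, the granule-bound starch synthase of the endosperm, had 3.51 to 4.89 in *Osrdr1* and 3.36 to 5.08 in WT over its 6 probe sets, near or below the array medians. The sucrose synthase *OsSUS1*, which also serves vegetative tissue, was bright, at 13.56 to 13.62 in *Osrdr1* and 13.47 to 13.57 in WT. *OsSUS5* had 7.51, 7.67 and 7.36 in *Osrdr1* and 7.08, 6.90 and 6.97 in WT and just missed the threshold (log2 fold change 0.53, limma adjusted p = 0.0516). The amylases other than *AMY1A* that were measured, *RAmy3A*, *RAmy3D*, *RAmy3E* and *AMYC2*, lay below the median of every array, WT replicate 2 included.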
